A study of Drosophila melanogaster with 12 samples.

Results

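The 10 genes described here encode proteins that make fatty acids and triglycerides or that build, coat and empty lipid droplets in Drosophila melanogaster. They are *Jabba*, *Lsd-1*, *Lsd-2*, *Seipin*, *mdy*, *Lpin*, *bmm*, *FASN1*, *ACC* and *Desat1*. They were taken by name from knowledge of their function, and all 10 were found by symbol among the 17737 genes of the RIP-seq table. All 10 were among the 10971 genes with at least 1 count that were tested. In the RNA-seq table, which lists 6555 genes, 8 of the 10 were present, and *Lsd-1* and *mdy* were not among the listed genes.

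RIP-seq compared 3 GFP-trap pull-downs from ovaries of the Bam-fTRG-GFP strain, in which Bam is tagged with GFP, with 3 from ovaries of the Bam-Gal4 ::UASp-GFP strain, in which GFP alone is driven by *bam*-Gal4. Each pull-down used the pooled ovaries of many flies, somatic cells included, and GFP from *bam*-Gal4 is made only where that driver is active. RNA-seq was performed on GFP-positive sorted cells of vas-GFP ovaries, 3 samples with a homozygous bam_delta86 deletion and 3 without. The ages of the flies are not given in the sources used here. The pull-down libraries held between 7697440 and 12704088 counts on genes. No input RNA was analysed, so that binding to Bam, a different amount of a transcript in the lysate and fewer cells of the type that makes it cannot be told apart. Nothing in the labels says that libraries of one group came from separate cultures of flies, so p-values refer to these libraries only. The p-values and intervals of the edgeR fit rest almost wholly on a spread shared by all genes. They depend little on a gene's own spread between libraries.

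Fatty acids are made in the cytosol from acetyl-CoA, which ACC carboxylates and which the fatty acid synthase FASN1 extends into a saturated chain. Desat1 then places a double bond in that chain. Lpin and the diacylglycerol acyltransferase encoded by *mdy* (*midway*) carry out late steps of triglyceride synthesis, Seipin acts at the endoplasmic reticulum where droplets form, and the perilipins Lsd-1 and Lsd-2 coat the droplet and control access of lipases such as *brummer* (*bmm*). Nurse cells of mid-stage egg chambers fill with droplets that are passed to the oocyte, and Jabba holds histones on the droplets of the early embryo.

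In the pull-downs, none of the 10 mRNAs was called changed by edgeR's quasi-likelihood test (adjusted p under 0.05). The counts were also 0 with DESeq2 and with limma-voom. Over all tested genes, 189 (1.72%) were higher and 52 (0.474%) lower with Bam-GFP in the same test. Higher genes thus made up 78.4% of the calls with TMM, 55.4% with library size only and 89.5% with totals over all lines of the table, those of reads with several alignments among them. One of the 10, *Lsd-2*, had an unadjusted p under 0.05, against 9.57% of all tested genes. The median log2 fold change (log2FC, Bam-GFP over GFP control) of the 10 was 0.11, beside −0.05 over all tested genes, and 6 of the 10 were positive. In 2 of the 10, *Lsd-2* and *Jabba*, every Bam-GFP library lay above every GFP control library, as in 6.4% of all tested genes. *Desat1* alone showed the opposite order, which 7.24% of all tested genes had. Levels are given as CPM, counts scaled to library size with edgeR's TMM factors. CPM are not corrected for transcript length, so that they set libraries side by side for one gene, and a difference in level between genes can come from length.

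**Figure D1:**
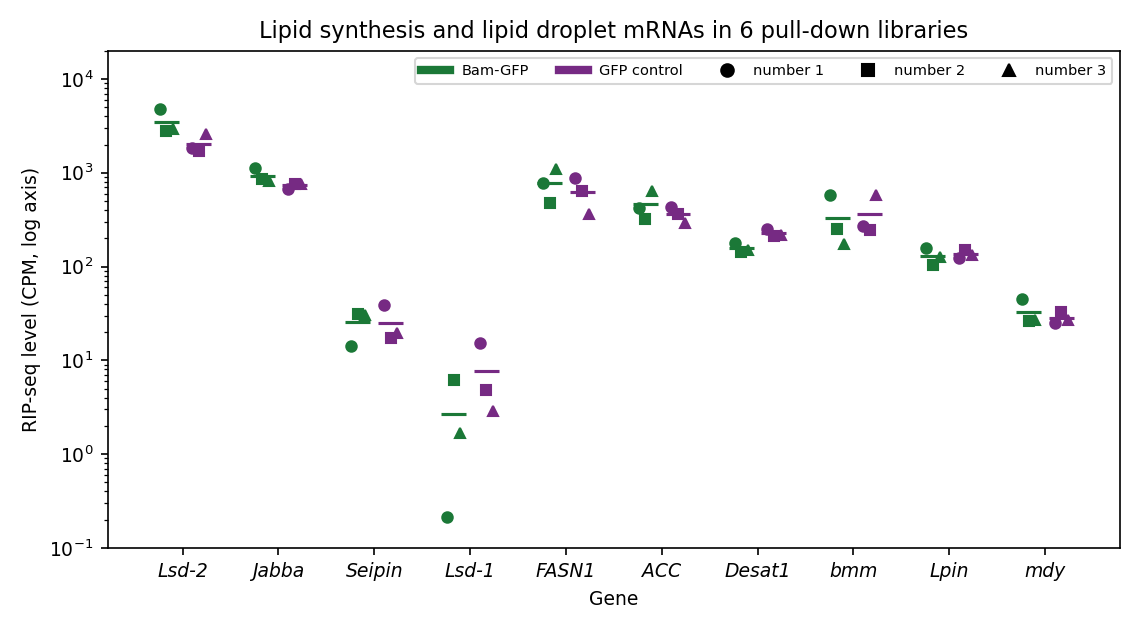
RIP-seq level in CPM (log axis) of each gene in the 3 Bam-GFP (green) and 3 GFP control (purple) libraries, with bars at the group means and marker shapes for the number in the library's name. *Lsd-2* and *Jabba* are higher in all 3 Bam-GFP libraries, *Desat1* is lower in all 3, and the groups overlap for the other 7 genes.

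*Lsd-2* (FBgn0030608, chromosome X from 15069127 to 15076220 in the Release 6 assembly), the perilipin that coats droplets in the germline and many other tissues, had the largest positive change of the 10. It stood at 4837, 2759 and 2932 CPM with Bam-GFP and at 1833, 1699 and 2587 CPM with GFP alone. The lowest Bam-GFP library thus exceeded the highest GFP control by a small margin, and Bam-GFP library 1 stood far above the rest. The means were 3509 ± 1153 and 2040 ± 479 CPM (SD, n = 3 each). The log2FC was 0.76 (SE 0.32, 95% interval from 0.13 to 1.39), with an unadjusted p of 0.0177 and an adjusted p of 0.301 in edgeR's quasi-likelihood test. Between libraries of the same number the log2 ratio was 1.40, 0.70 and 0.18. Leaving out the libraries numbered 1 lowered the log2 fold change to 0.44, and leaving out those numbered 3 raised it to 1.05. The adjusted p ranged from 0.0634 with limma-voom to 0.946 without replicate 2, so that no alternative passed the threshold. The unadjusted p rested on the block by library number and was 0.0547 without it, for a log2FC of 0.78 (SE 0.41), in edgeR's quasi-likelihood test.

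Summed levels of follicle cell markers were higher in every Bam-GFP library than in every GFP control. Those of the other cell types overlapped between the groups. The summed level of 11 genes of the mid and late germline ran from 6718 to 12976 CPM with Bam-GFP and from 5512 to 7007 CPM with GFP alone, and 2 of the 11 were higher by edgeR's quasi-likelihood test (adjusted p under 0.05), with a median log2FC over the 11 of −0.07. The summed level of 15 yolk, vitelline membrane and chorion genes of late follicle cells ran from 9870 to 28875 CPM with Bam-GFP and from 4797 to 9491 CPM with GFP alone, with 12 of the 15 higher in that test. The 6 genes listed for the early germline summed to between 1653 and 2072 CPM in all 6 libraries, with *bgcn* at 3 or fewer counts in each. The list includes *vas*, and the study used *vas*-GFP to sort the whole germline. The sum is therefore not confined to the cells in which Bam acts. Of these 6 genes, 1 was higher in that test, *bam* itself, with means of 49.5 CPM in Bam-GFP and 10.6 CPM in GFP control libraries and a log2FC of 2.47 (SE 0.57). The Bam-GFP strain carries a GFP-tagged *bam* that the control strain lacks, and its part in this value was not tested. *Sxl* had 133 ± 48.7 and 261 ± 44.9 CPM (SD, n = 3 each), with an adjusted p of 0.0637 in edgeR's quasi-likelihood test. Over the 6 early germline genes the median log2FC was 0.29, and 4 of the 6 were positive, against 47.8% of all tested genes. Hemocyte markers summed to between 89.1 and 128 CPM, escort and niche cell markers to at most 34.4 CPM, and the 6 genes of follicle cells to between 370 and 551 CPM with Bam-GFP and between 207 and 311 CPM with GFP alone, 1 of the 6, *tj*, being higher in that test. The markers *bgcn*, *bam*, *Sxl* and *tj* were named after their values were seen. The part of these differences in the values of *Lsd-2* and the other lipid genes was not tested.

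*Jabba* (FBgn0259682, chromosome 2R from 18757074 to 18761082) stood at 1118, 860 and 819 CPM with Bam-GFP and at 675, 766 and 763 CPM with GFP alone. The groups did not overlap, with group means of 932 ± 162 and 735 ± 51.9 CPM (SD, n = 3 each). This was a log2FC of 0.33 (SE 0.31, 95% interval from −0.28 to 0.94, adjusted p = 0.895 in edgeR's quasi-likelihood test). With library size in place of TMM the groups overlapped, at 902, 900 and 767 CPM against 763, 849 and 770 CPM, and the log2 fold change was 0.11.

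The ratio of counts of *Lsd-2* over *Jabba* within a library does not depend on how the libraries are scaled. It ranged from 3.21 to 4.33 with Bam-GFP and from 2.22 to 3.39 with GFP alone, so that the groups overlapped.

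*Seipin* (FBgn0040336, chromosome X from 2619799 to 2622140), which acts in the budding of new droplets, stood at 14.2, 31.4 and 30.2 CPM with Bam-GFP and at 38.9, 17.4 and 19.6 CPM with GFP alone. In each group one library stood apart, on opposite sides, and the group means were 25.3 CPM each. Its log2FC was 0.04 (SE 0.59), with a 95% interval from −1.11 to 1.19 that leaves room for a change of more than 2-fold in either direction.

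*Lsd-1* (FBgn0039114, chromosome 3R from 23763857 to 23766662), the perilipin that controls lipolysis in the fat body, had the fewest counts of the 10. The Bam-GFP libraries held 2, 50 and 20 counts and the GFP controls 163, 41 and 27. In CPM these were 0.212, 6.19 and 1.68 against 15.4, 4.81 and 2.89, with overlapping groups. The fit gave a log2FC of −1.64 (SE 1.39, adjusted p = 0.895 in edgeR's quasi-likelihood test). It was −0.20 without the libraries numbered 1, −3.22 without those numbered 2 and −2.57 without those numbered 3. GFP control library 1 also had the highest summed level of 8 muscle sheath genes, 622 CPM against 170 to 274 CPM in the other 5 libraries. Of 6 fat body genes, *Fbp1* had 3 or fewer counts in every library, 2 had none in any, and their summed level ran from 1.93 to 18.9 CPM with Bam-GFP and from 0 to 8.62 CPM with GFP alone. The part of muscle sheath or fat body RNA in *Lsd-1* was not tested.

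The enzymes of fatty acid synthesis gave 2 different patterns. *FASN1* (FBgn0283427, chromosome 2L from 3056598 to 3068177) stood at 784, 475 and 1085 CPM with Bam-GFP and at 879, 643 and 364 CPM with GFP alone. *ACC* (FBgn0033246, chromosome 2R from 7974115 to 7991862), which makes the malonyl-CoA that FASN1 consumes, stood at 420, 320 and 636 CPM with Bam-GFP and at 430, 365 and 289 CPM with GFP alone. For both, the highest library was Bam-GFP 3 and the lowest GFP control 3, and the groups overlapped. *FASN1* had a log2FC of 0.31 (SE 0.33) and *ACC* of 0.30 (SE 0.32), each with an adjusted p of 0.895 in edgeR's quasi-likelihood test. Without the libraries numbered 3 both changed sign, to −0.30 and −0.11.

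*FASN1* and *ACC* had the highest Pearson's r and the highest Spearman's rho over the libraries of the 45 pairs among the 10. Over the 6 libraries Pearson's r of log2 CPM was 0.939 (exact permutation p = 0.00417, adjusted p = 0.0938 over 45 pairs) and both genes ranked the libraries in the same order (Spearman's rho of 1, exact permutation p = 0.00278, adjusted p = 0.125 over 45 pairs). Without the 2 libraries farthest from the median of *FASN1*, r was 0.991. After removal of the group means it was 0.938, below the 0.948 of *Lsd-2* and *bmm*. The levels of *FASN1* spanned 2.98-fold and those of *ACC* 2.20-fold, while their ratio of counts stayed between 1.26 and 2.05. The second highest r was that of *Jabba* and *Lsd-2*, at 0.910 (exact permutation p = 0.0208, adjusted p = 0.313 over 45 pairs), with a Spearman's rho of 0.771 (exact permutation p = 0.103, adjusted p = 0.578 over 45 pairs). It fell to 0.613 without the 2 libraries farthest from the median of *Jabba*. *Seipin* and *mdy* ran opposite to each other, with an r of −0.83 (exact permutation p = 0.00417, adjusted p = 0.0938 over 45 pairs) and a Spearman's rho of −0.94 (exact permutation p = 0.0167, adjusted p = 0.25 over 45 pairs). No pair passed the adjustment.

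**Figure D2:**
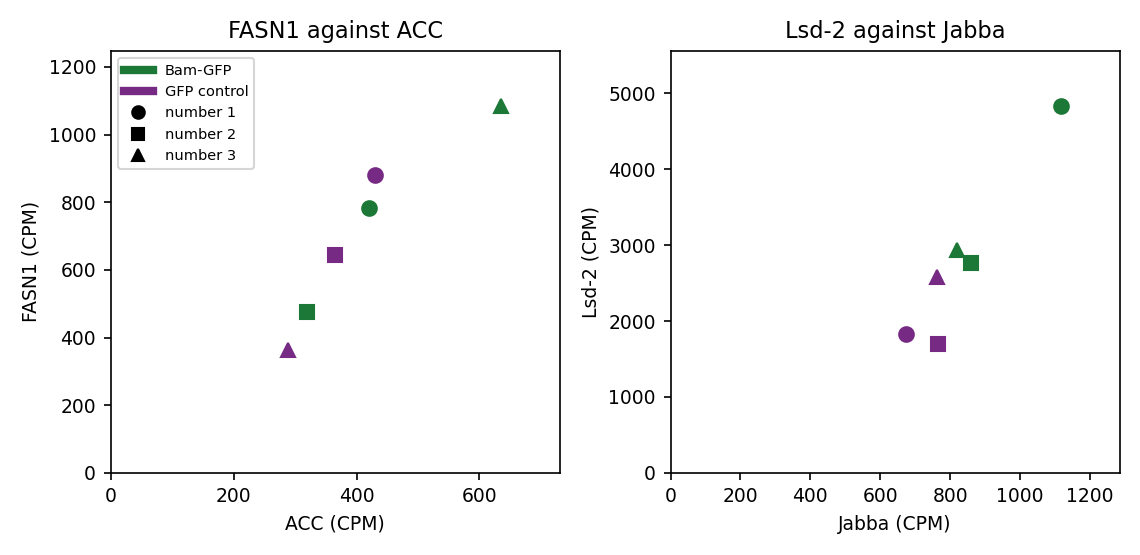
Levels in CPM of *FASN1* against *ACC* (left) and of *Lsd-2* against *Jabba* (right), 1 point per library, Bam-GFP in green and GFP control in purple. The *FASN1* and *ACC* points lie along a line on which both groups mix, whereas on the right the Bam-GFP libraries lie above the GFP controls in both genes.

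*Desat1* (FBgn0086687, chromosome 3R from 12439600 to 12447616), the desaturase, was the only one of the 10 with all Bam-GFP libraries below the GFP controls. It stood at 180, 144 and 150 CPM with Bam-GFP and at 252, 214 and 219 CPM with GFP alone. The spread within groups was small, with means of 158 ± 19.5 and 229 ± 20.8 CPM (SD, n = 3 each). The fit gave a log2FC of −0.53 (SE 0.32, 95% interval from −1.15 to 0.09, adjusted p = 0.682 in edgeR's quasi-likelihood test). The log2 ratios between libraries of the same number were −0.48, −0.57 and −0.54, the narrowest range of the 10. The libraries share only a number, so that this range depends on which libraries are set side by side. Its log2 fold change stayed between −0.56 and −0.51 when the libraries of any one number were left out. The standard error of the fit rests almost wholly on a spread shared by all genes, so that it shows neither the narrow range of these ratios nor the wide range of those of *bmm* and *FASN1*. The ratio of counts of *Lsd-2* over *Desat1*, chosen after the values were seen, was 26.8, 19.2 and 19.5 in the Bam-GFP libraries and 7.26, 7.95 and 11.8 in the GFP controls.

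**Figure D3:**
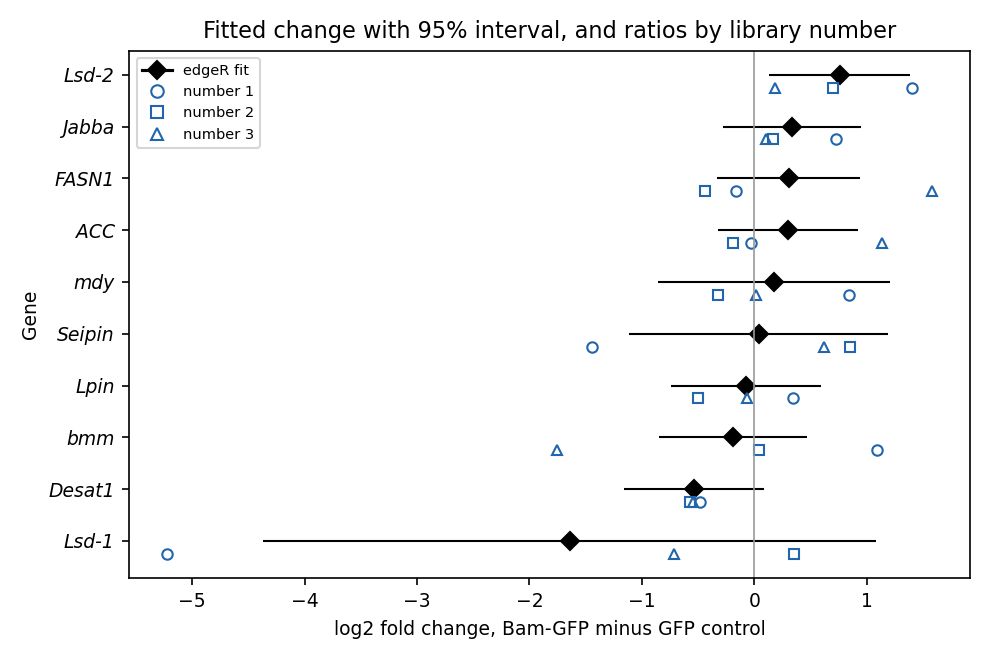
Log2 fold change of each gene between Bam-GFP and GFP control (diamonds, edgeR fit with 95% interval) and log2 ratio between libraries that share a number (open symbols). The interval of *Lsd-2* alone lies above 0 in this fit with a block by number, before any adjustment over genes. The 3 ratios of *Desat1* lie closest together when libraries are matched by number, which is all that they share.

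None of the 3 genes of triglyceride synthesis and breakdown separated the groups. *Lpin* (FBgn0263593, chromosome 2R from 8136986 to 8156654), the phosphatidate phosphatase that yields diacylglycerol, stood at 158, 105 and 127 CPM with Bam-GFP and at 125, 148 and 133 CPM with GFP alone. Its log2FC was −0.08 (SE 0.34, 95% interval from −0.74 to 0.59). *mdy* (FBgn0004797, chromosome 2L from 16816660 to 16826964) stood at 45.2, 26.2 and 27.2 CPM with Bam-GFP and at 25.2, 32.8 and 26.9 CPM with GFP alone. Bam-GFP library 1 was the highest for *mdy*, as for *Jabba*, *Lsd-2* and *Lpin*. The log2 fold change of *mdy* was 0.18 (SE 0.53), and its 95% interval ran from −0.85 to 1.21.

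*bmm* (FBgn0036449, chromosome 3L from 14776496 to 14786412), the triglyceride lipase, had the widest range over the 6 libraries after *Lsd-1*, 3.39-fold. It stood at 577, 249 and 173 CPM with Bam-GFP and at 271, 242 and 585 CPM with GFP alone, and the highest libraries of both groups stood at a similar level. The log2 ratio between libraries of the same number was 1.09, 0.04 and −1.76. The fit gave a log2FC of −0.19 (SE 0.34, adjusted p = 0.895 in edgeR's quasi-likelihood test). It was −0.86 without the libraries numbered 1 and 0.57 without those numbered 3, so that no direction can be given.

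By gene span, *Jabba*, *Lsd-1*, *Seipin*, *mdy*, *Lpin* and *ACC* overlap at least 1 other annotated gene, and the counting is not stated to use strand, so that their counts can be uncertain there. The overlapping genes were mostly scarce, with a mean of 0.825 CPM for *Cyp12b2* at *Jabba* and 27.7 CPM for *Nup44A* at *ACC*. At *Lsd-1*, however, *CG10214* had a mean of 8.83 CPM and was higher in every Bam-GFP library, and at *mdy* the exportin gene *Cse1* had 506 CPM. *FASN1* lies 454 bases from its paralog *FASN2*, which had 10.8 ± 6.76 and 4.04 ± 1.52 CPM (SD, n = 3 each) in the Bam-GFP and GFP control libraries.

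In the sorted germ cells only the authors' mean normalized count over all 6 RNA-seq libraries could be used, with no error and no comparison of groups. This mean was 14642 for *Desat1*, 14391 for *Lpin*, 11610 for *FASN1*, 6825 for *ACC*, 6497 for *Lsd-2*, 5858 for *bmm*, 522 for *Seipin* and 140 for *Jabba*. Presence in the table reflects the authors' selection of genes, and nothing was read from it. To set each gene's rank in sorted germ cells beside its rank in the ovary pull-downs, percentiles were taken over the 5934 genes that were listed in RNA-seq and had counts in RIP-seq. Most genes ranked alike in both, with 78.2% of them within 20 percentile points. Neither table is corrected for transcript length, so that a gene's length enters its rank in both, and only the difference between a gene's own ranks is described.

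*Jabba* stood apart in this respect. It lay at the 13.5th percentile in sorted germ cells and at the 97.9th in the pull-downs, a distance of 84.3 points. Of the 5934 genes, 2 lay this far or farther in either direction, *Jabba* and *CG15570*. This count over all genes was chosen after the values were seen. With GFP alone its mean level was 735 CPM, close to that over all 6 libraries, 834 CPM. *Lsd-2* was higher in the pull-downs by 17.4 points, *Seipin* by 21.6, *bmm* by 11.0, *ACC* by 9.71 and *FASN1* by 5.95. *Desat1* and *Lpin* were lower there, with differences of −9.44 and −14.5 points. The mean in sorted germ cells pools bam mutant and vas-GFP samples. The tables differ in the cells, in the genotypes, in the pull-down and in sequencing, paired-end for RNA-seq and single-end for RIP-seq. They also differ in the annotation release, since *FASN1* is listed as FBgn0027571 in the RNA-seq table. These differences cannot be told apart.

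**Figure D4:**
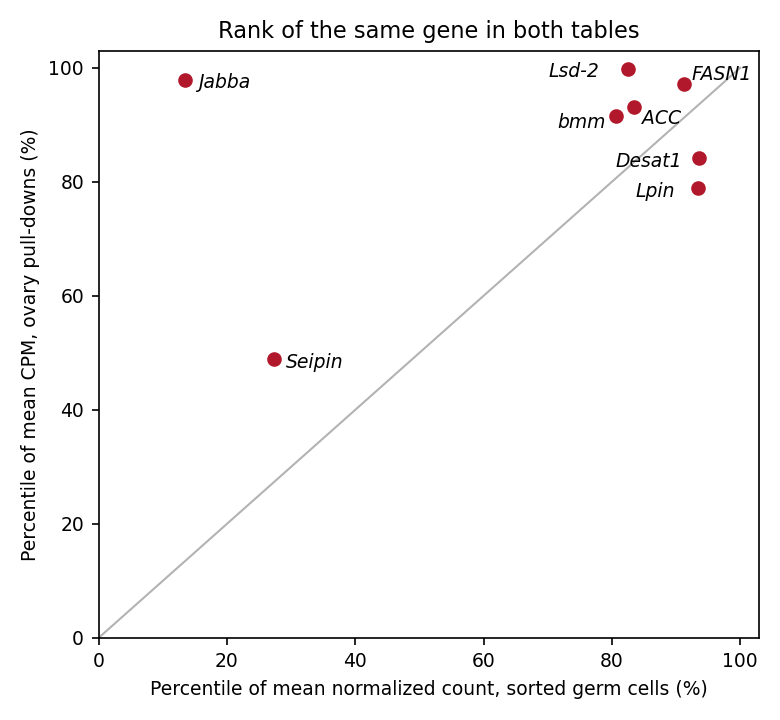
Percentile of each gene by the authors' mean normalized count in sorted germ cells (x axis) and by mean CPM in the 6 ovary pull-downs (y axis), for the 8 genes listed in both tables, ranked over 5934 genes, with a line of equal rank. *Jabba* lies far above the line, at the 13.5th and the 97.9th percentile, and the other 7 listed genes lie within 21.6 points of it.

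Of the other genes of lipid metabolism, 53 were found in the RIP-seq table and 51 were tested. One was higher and 1 lower with Bam-GFP by edgeR's quasi-likelihood test (adjusted p under 0.05), beside 1.72% and 0.474% of all genes, and their median log2 fold change was −0.02. The higher gene, *mgl*, encodes Megalin, an endocytic receptor of the LDL receptor family and no enzyme of the triglyceride list in which it had been placed. It stood at 1028, 544 and 1671 CPM with Bam-GFP and at 245, 109 and 200 CPM with GFP alone, with no overlap. Its log2FC was 2.48 (SE 0.33, adjusted p = 8.23e-11 in edgeR's quasi-likelihood test). Like the summed level of the late follicle cell genes, it was higher in every Bam-GFP library. Within the groups the order of the libraries differed. The late follicle cell sum was 15674, 28875 and 9870 CPM with Bam-GFP and 4801, 9491 and 4797 CPM with GFP alone. The part of those cells in the level of *mgl* was not tested.

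The lower gene was *apolpp*, which encodes the apolipoprotein of lipophorin, the particle that carries lipids in the hemolymph. It stood at 191, 135 and 221 CPM with Bam-GFP and at 623, 338 and 306 CPM with GFP alone. The groups did not overlap, and GFP control library 1 stood apart from the other controls. The fit gave a log2FC of −1.17 (SE 0.32, adjusted p = 0.0196 in edgeR's quasi-likelihood test). The call was lost without the libraries numbered 1 (−0.90, adjusted p = 0.376) and without those numbered 2 (−1.09, adjusted p = 0.554), both from edgeR, and over all alternatives the adjusted p ranged from 0.00273 to 0.554. GFP control library 1 also had the highest muscle sheath sum given above, and the part of muscle sheath or fat body RNA in *apolpp* was not tested. The lipophorin receptor gene *LpR2* had 592 ± 291 and 428 ± 157 CPM (SD, n = 3 each), and none of the other 6 genes of uptake and transport passed the test.

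**Figure D5:**
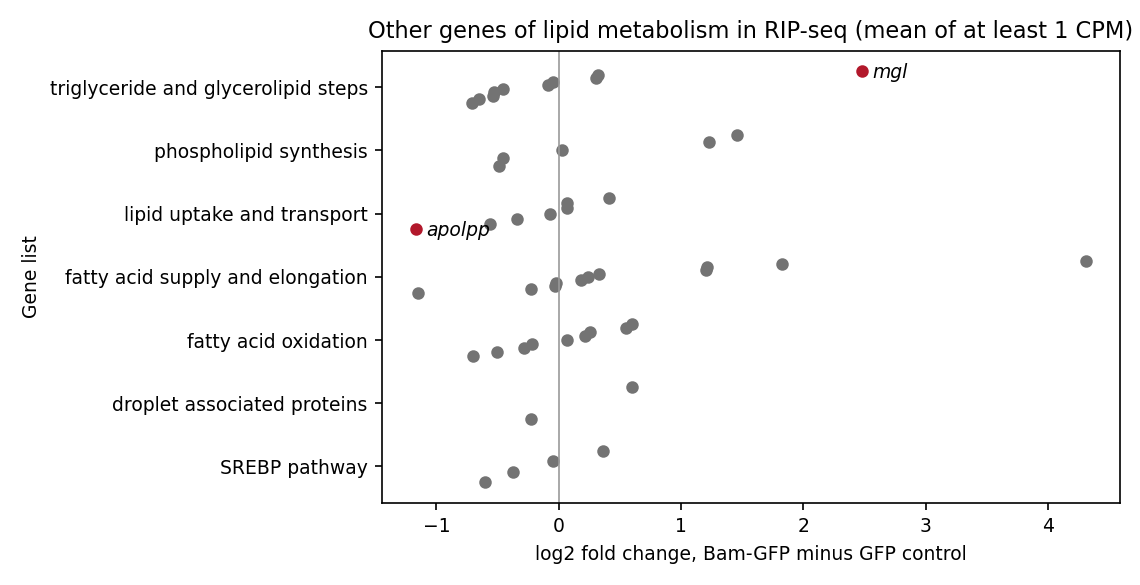
Log2 fold change between Bam-GFP and GFP control of the 48 other genes of lipid metabolism with a mean of at least 1 CPM, by list, with genes at an adjusted p under 0.05 in red. *mgl* and *apolpp* are the only red points, and the others lie on both sides of 0.

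Among the 12 genes tested for fatty acid supply and elongation none passed. The ATP citrate lyase gene *ATPCL*, which supplies acetyl-CoA, had 372 ± 83.5 and 296 ± 64.8 CPM (SD, n = 3 each) in Bam-GFP and control, and the acyl-CoA synthetase gene *Acsl* 410 ± 90.9 and 344 ± 51.7 CPM. Of the 11 genes of triglyceride and glycerolipid steps, *mgl* alone passed the test. The log2 fold change was positive in 4 of the 11, against 47.8% of all tested genes, with a median of −0.09. Without *mgl* and genes under 1 CPM, it was negative in 7 of 9, with a median of −0.45. The lowest adjusted p of these 9 was 0.760 in edgeR's quasi-likelihood test. *mino*, the gene of a mitochondrial glycerol-3-phosphate acyltransferase, had 139 ± 25.4 and 192 ± 43.6 CPM (SD, n = 3 each).

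The 2 further droplet proteins tested were *klar*, which governs transport of droplets along microtubules in the embryo, and *Faf2*, a homolog of a human ubiquitin regulator found on droplets. *klar* had 960 ± 262 and 628 ± 135 CPM (SD, n = 3 each), a log2 fold change of 0.60 with an adjusted p of 0.569 in edgeR's quasi-likelihood test, and *Faf2* had 66.1 ± 15.5 and 76.7 ± 15.3 CPM. None of the 4 genes of the SREBP pathway, which controls transcription of *ACC* and *FASN1*, passed the test. *SREBP* itself had 150 ± 36.6 and 115 ± 13.1 CPM and its escort *SCAP* 131 ± 21.2 and 135 ± 15.3 CPM (SD, n = 3 each). The 5 genes of phospholipid synthesis did not pass either. *Pcyt1*, of the phosphatidylcholine pathway, had 106 ± 14.2 and 105 ± 23.5 CPM, and *bbc*, the choline and ethanolamine phosphotransferase, 87.5 ± 28.0 and 116 ± 4.62 CPM (SD, n = 3 each). Nor did any of the 10 genes of fatty acid oxidation. Of these, *Mtpalpha* of the mitochondrial trifunctional protein had 357 ± 112 and 245 ± 82.7 CPM, and *scu*, a hydroxyacyl-CoA dehydrogenase, 171 ± 28.2 and 208 ± 30.7 CPM (SD, n = 3 each).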

How the data were processed

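RIP-seq was performed on 3 Bam-GFP and 3 GFP control pull-downs, and RNA-seq on 3 bam mutant and 3 vas-GFP samples of sorted cells. Per the submitters' processing notes and the study's methods, the authors aligned reads with STAR 2.4.0 to Release 6 of the FlyBase genome and counted them per gene with HTSeq 0.11.0. The authors deposited raw counts per gene for RIP-seq. For RNA-seq the authors' deposited table holds a signal, the mean normalized count (DESeq2 1.14.0) over all libraries. Both tables also hold fold changes and p-values of the authors' comparisons, which were not used.

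RIP-seq columns carry names such as Bam1, and were assigned to their group only. The 5 lines that name no gene, with 80.4% to 90.2% of all counts, mostly reads aligned to several places, were left out. All genes with 1 count or more were fitted with edgeR 4.0.16 (TMM, robust quasi-likelihood test) in R 4.3.3, with the number in the library's name as a block because the study used a paired test, and with Benjamini-Hochberg adjustment over these 10971 genes. When tested on simulated data, this procedure called few of the smallest changes that were put in, so that a gene not called may still differ. Standard errors were derived from the F statistic. The median total degrees of freedom of the main fit was 21942, beside 2 residual degrees of freedom. Its p-values, standard errors and intervals thus rest almost wholly on a spread shared by all genes. The fit was repeated with RLE factors, library size only, DESeq2 1.42.0, stricter filters, no block and each number left out. Totals with all lines, edgeR without its robust option and limma-voom (limma 3.58.1) were chosen after seeing the data.

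The members and lists were chosen with earlier results of these data known. Named genes were the 10 members and, in each other list, every gene past the test and the 2 with the highest mean CPM. Log2 CPM for ratios between libraries used a prior count of 2. Correlations were tested over all orders of the 6 libraries, two-sided, with SciPy 1.17.1. Coordinates are those of the Release 6 gene annotation. Its lengths are gene spans, so that values per transcript length were not computed. Sequences were not used here.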

Additional observations from a re-analysis of the deposited data

How the results depend on the processing

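No member passed an adjusted p under 0.05 in any of the 12 alternatives, 11 for *Lsd-1*, which the minimum of 10 counts in every library removes. Of the members' 119 alternative log2 fold changes, 12 changed sign, all of genes whose groups overlapped. *Seipin* was at −0.17 with library size only, −0.00035 with no replicate block, −0.014 with limma-voom and −0.41 to 0.74 with 1 number left out (−0.41 without replicate 2, −0.30 without replicate 3). *mdy* was at −0.045 with library size only and −0.15 (without replicate 1) to 0.43 with 1 number left out. *Lpin* was at 0.048 with library totals of all lines and −0.29 to 0.14 (without replicate 2). The values ran from −0.86 to 0.57 for *bmm*, from −0.30 to 0.71 for *FASN1* and from −0.11 to 0.55 for *ACC*, the sign changing in each without replicate 3. Of the other genes, *LpR2* ran from −0.0072 (without replicate 1) to 0.75, *Pcyt1* from −0.28 (without replicate 1) to 0.22 with −0.19 at library size only, and *SCAP* from −0.20 to 0.17 (without replicate 2) with 0.070 at library totals of all lines. *mgl* was called higher in all 12 alternatives. The call of *apolpp* was also lost, at a similar log2 fold change, with edgeR's filter on low counts (−1.16, adjusted p = 0.0817), with at least 10 counts in every library (−1.17, adjusted p = 0.0696) and with library totals of all lines (−1.06, adjusted p = 0.214).

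Over all genes, the 189 higher became 108 with library size only, 304 with DESeq2, 102 with edgeR's filter, 100 with at least 10 counts in every library, and 55 to 121 with 1 number left out. The 52 lower became 87, 104, 16 and 13 in the same order, 16 with library totals of all lines, 85 with limma-voom, and 18 to 44 with 1 number left out. Higher genes made up 78.4% of the calls, 55.4% with library size only and 89.5% with library totals of all lines. The median log2 fold change of all genes was −0.26 with library size only. Of the other lipid genes, 2 were higher with DESeq2, and 0 were lower with either filter and with library totals of all lines, with 0 to 1 lower when 1 number was left out. The cause of these differences was not tested.

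With no replicate block, 227 genes were higher and 73 lower. Deviations of libraries with the same number correlated by −0.15, 0.23 and −0.051 over 6335 genes, and only the libraries numbered 2 correlated best with each other, so that the libraries share only a number. Depth limits *Lsd-1*, with 2 to 163 counts a library. The alternatives with transcript length were not run, because no transcript lengths were used.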
